A study of Rattus norvegicus with 6 samples.

Results

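The genes of the cytosolic ribosomal proteins were followed in cultured ventricular heart muscle cells of newborn rats. They were taken by name from the table of FPKM (fragments per kilobase of gene, scaled to the depth of the library): every row called Rpl (large subunit) or Rps (small subunit) and marked as protein coding, without the 10 rows of the Rps6k kinases and without names holding -ps. That gave 92 of 34257 rows, with 55 rows of 51 symbols for the large subunit and 37 rows of 35 symbols for the small one. There were 2 groups of 3 libraries, 1 of cells given vehicle and 1 of cells given perhexiline at 1 µM for 24 h, all of neonatal rat ventricular cardiomyocytes without a stated genetic change. Perhexiline is an antianginal drug that inhibits the import of long-chain fatty acids into mitochondria, and the series asks how it changes gene expression in these cells. Nothing in the labels tells if replicates came from separate cultures or litters, and every p-value therefore rests on the spread of these libraries alone, which could be technical.

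A ribosome reads messenger RNA with its small subunit and joins amino acids in its large subunit, and each ribosome carries about equal numbers of most of its proteins. In vertebrates nearly every messenger RNA for a ribosomal protein starts at a cytosine inside a run of pyrimidines, the 5′ terminal oligopyrimidine (TOP) tract, through which the kinase mTORC1 sets how much of it is translated. In heart muscle, the number of ribosomes is 1 of the limits on protein synthesis during growth. The amount of these messenger RNAs, which is what was measured here, need not follow their translation.

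The starts of the genes that the results turn on are printed from RefSeq promoters of build GRCr8, 1 per line, to show annotated starts with and without the tract. Each line runs on the gene's strand from 15 bases before the annotated start to the 15th transcribed base, so that the 16th letter is the first base transcribed, and capitals mark the longest run of C and T that touches this window, as far as it lies inside.
Rpl28: ccccgcccctagtgTCTTTCTTTCCgtctc
Rpl13a: CCTCTTCCTTTCCTaggcggctgccgaaga
Rplp0: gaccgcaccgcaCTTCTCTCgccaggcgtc
Rplp1: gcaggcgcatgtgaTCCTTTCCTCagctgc
Rpl10: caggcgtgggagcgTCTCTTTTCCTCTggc
Rps27: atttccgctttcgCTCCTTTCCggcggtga
Rpl3: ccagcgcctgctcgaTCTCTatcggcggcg
Rpl3l: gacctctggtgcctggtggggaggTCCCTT
Rpl7l1: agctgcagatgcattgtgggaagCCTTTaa
Rpl22l1: gCTCCgtggatatccggttccgagttgcgc
Rps27l: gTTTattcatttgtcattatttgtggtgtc
The windows lie at chr1:78083518-78083547 (minus strand), chr1:104748899-104748928 (minus), chr12:46718376-46718405 (minus), chr8:71290858-71290887 (minus), chrX:157205835-157205864 (plus), chr2:177964592-177964621 (minus), chr7:113507976-113508005 (minus), chr10:14258431-14258460 (plus), chr9:21695703-21695732 (plus), chr2:113683181-113683210 (plus) and chr8:76443643-76443672 (plus). Rpl28, Rplp0, Rplp1, Rpl10 and Rps27 start at a C followed by at least 4 pyrimidines. In Rpl13a the run of 14 pyrimidines ends just before the annotated start. The paralogs Rpl7l1, Rpl22l1 and Rps27l have runs of 5, 4 and 3 bases, but Rpl3l has 9 and Rps4y2 has 8, and runs of 3 are also found at the standard genes Rpl11, Rpl41 and Rps12, so a short run does not mark a paralog.

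RefSeq promoters were found for 64 of the 86 symbols, with 65 promoters of 300 bases (250 before the start and 50 after it). A pyrimidine run of at least 6 bases touched the window of 15 bases on each side of the start in 52 of the 65 (80%), against 33.5% of 9921 promoters of other tested protein-coding genes and 36.3% of all 33469 promoters. A start at C with 4 pyrimidines behind it was found in 19 (29.2%), against 2.64% of the others and 2.63% of all. This match depends on the exact base annotated as the start, so genes without it may still have the tract. The letters CTTTCC, searched on both strands of the 300 bases and able to overlap the tract, stood in 50.8% of the ribosomal protein promoters, 25.6% of those of the other tested genes and 26.4% of all. The ETS motif CCGGAAG stood in 27.7%, 17.5% and 8.75%, and the YY1 motif AAGATGGC in 9.23%, 5.54% and 3.17%. The TATA box TATAAA stood in 13.8%, 6.84% and 14.2%, so that its share was near that of all promoters but above that of the other tested genes. These matches describe letters in a window and are no test of a factor. Among members on a single row, the 18 with the C start had a median log2 difference between the groups of 0.11 and the 37 without it of 0.11. For the same reason, these sets do not separate genes with the tract from genes lacking it.

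Fragments recovered from the FPKM values numbered 13616252 to 16702523 per library, and 1 fragment per kilobase corresponded to 0.0574 to 0.0727 FPKM. Heart muscle transcripts were abundant in all libraries, with Myh6, the fast myosin of the heart, at 2210 to 3382 FPKM, and markers of other cell types were present as well. Of the 92 rows, 4 were listed at 0 in all 6 libraries (Rpl23a, Rpl10a, Rpl30l1 and Rplp0l1). A further 4 were above 0 but below the limit for testing, 1 FPKM or more in 3 or more libraries: Rpl3l, Rpl35al1, Rps15al4 and the Rpl21 row on chromosome 3. Rps15al4 stood at 0.157, 0.142 and 0.155 FPKM with vehicle and 0.250, 1.10 and 0.248 with perhexiline, the Rpl21 row on chromosome 3 at 0.301, 0.135 and 0 FPKM with vehicle and 0.239, 0 and 0.119 with perhexiline, and Rpl35al1 was above 0 in perhexiline replicate 3 alone, at 0.172 FPKM. The other 84 rows, 48 large and 36 small, were tested with all 13460 genes that passed. Of all 92, 75 rows carried 69 of the 80 standard ribosomal protein symbols and 17 had another name, among them Rps19bp1, which encodes a nucleolar protein that binds Rps19 and is no ribosomal protein.

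Ribosomal protein messenger RNAs were abundant in these cells. They made up 23 of the 100 rows with the highest vehicle mean, and the median tested row stood at 289 FPKM with vehicle, against 10.8 over all genes tested. The order was led by Rpl41, which encodes a peptide of the large subunit, at 1269.8, 1188 and 1192 FPKM with vehicle and 1283, 1251 and 1247 with perhexiline. Rplp0, the base of the P-stalk, came next and is described below. Rpsa, a small-subunit protein also known as the laminin receptor, stood at 808, 818 and 813 FPKM with vehicle and 855, 886 and 858 with perhexiline. Rplp1, also of the stalk, followed, and Rpl18, a large-subunit protein, stood at 754, 773 and 763 FPKM with vehicle and 846, 895 and 834 with perhexiline. The vehicle values of Rplp1 overlapped those of both Rpsa and Rpl18, so its place between them is not resolved. The lead of Rpl41 held with vehicle, whereas with perhexiline all values of Rplp0 were above those of Rpl41. At the lower end of the tested rows were Rpl39l (1.46, 1.05 and 2.58 FPKM with vehicle), Rps9l1, Rpl8 at 13.8 ± 0.866 (SD, n = 3, as for all groups here), Rps19bp1 at 17.5 ± 0.675 and the Rpl7a copy that starts at 5459160.

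With perhexiline the ribosomal protein genes as a group stood slightly higher, mostly without a difference that passed for the single gene. Of the 84 tested, 2 rose and 0 fell in limma with Benjamini-Hochberg adjustment over all genes at 0.05, where 3.55% of all genes rose and 3.11% fell. At an unadjusted p under 0.05, 26 were higher and 1 was lower, against 13.4% and 12.3% of all genes. In 37 of 84 (44.0%) all 3 perhexiline libraries lay above all 3 vehicle libraries, against 17.0% of all genes tested, and in 0 they lay below, against 14.9%. The difference was above 0 in 70 of 84 (83.3%), against 52.9% of all genes. The median log2 difference on the log2(FPKM + 1) scale was 0.11, and 0.012 over all genes, and the median ratio of group means was 1.08. Relative to the median of all genes, their median was 0.095, and 0.091 to 0.10 under total-fragment, upper-quartile and median-of-ratios scaling. The count of 2 was 11 under total-fragment scaling, where 6.03% of all genes rose and 2.46% fell, 0 under upper-quartile scaling, where 2.83% rose and 4.13% fell, 4 with limma-voom on the recovered fragments, where 5.62% rose and 5.98% fell, and 0 when low values were not filtered, where 0.430% rose and 0.274% fell. These members share reads and libraries, so they are not independent of each other, and the counts and medians describe them without a test of the group. In bulk RNA, fewer cells of a type and less RNA per cell cannot be told apart.

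The medians of the subunits lay close together. The 48 large-subunit rows had a median of 0.11, with 42 above 0 and 23 (47.9%) without overlap between the groups. The 36 small-subunit rows had a median of 0.10, with 28 above 0 and 14 (38.9%) without overlap. Over all genes tested, 52.9% were above 0 and 17.0% were higher without overlap. Replicates lay closer together in these rows than in most genes, with a median coefficient of variation of 4.68% with vehicle and 3.59% with perhexiline, against 7.64% and 7.45% over all genes, and a small spread makes it easier for groups not to overlap. In 64 rows (76.2%) the coefficient was under 10% in both groups, as in 50.4% of all genes. Of these 64, 58 (90.6%) were above 0 and 36 (56.2%) were higher without overlap, with a median of 0.11, against 57.0% and 23.4% of all genes under the same limit. In the other 20 rows 12 (60%) were above 0 and 1 (5%) was without overlap, against 48.8% and 10.5%.

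**Figure D1:**
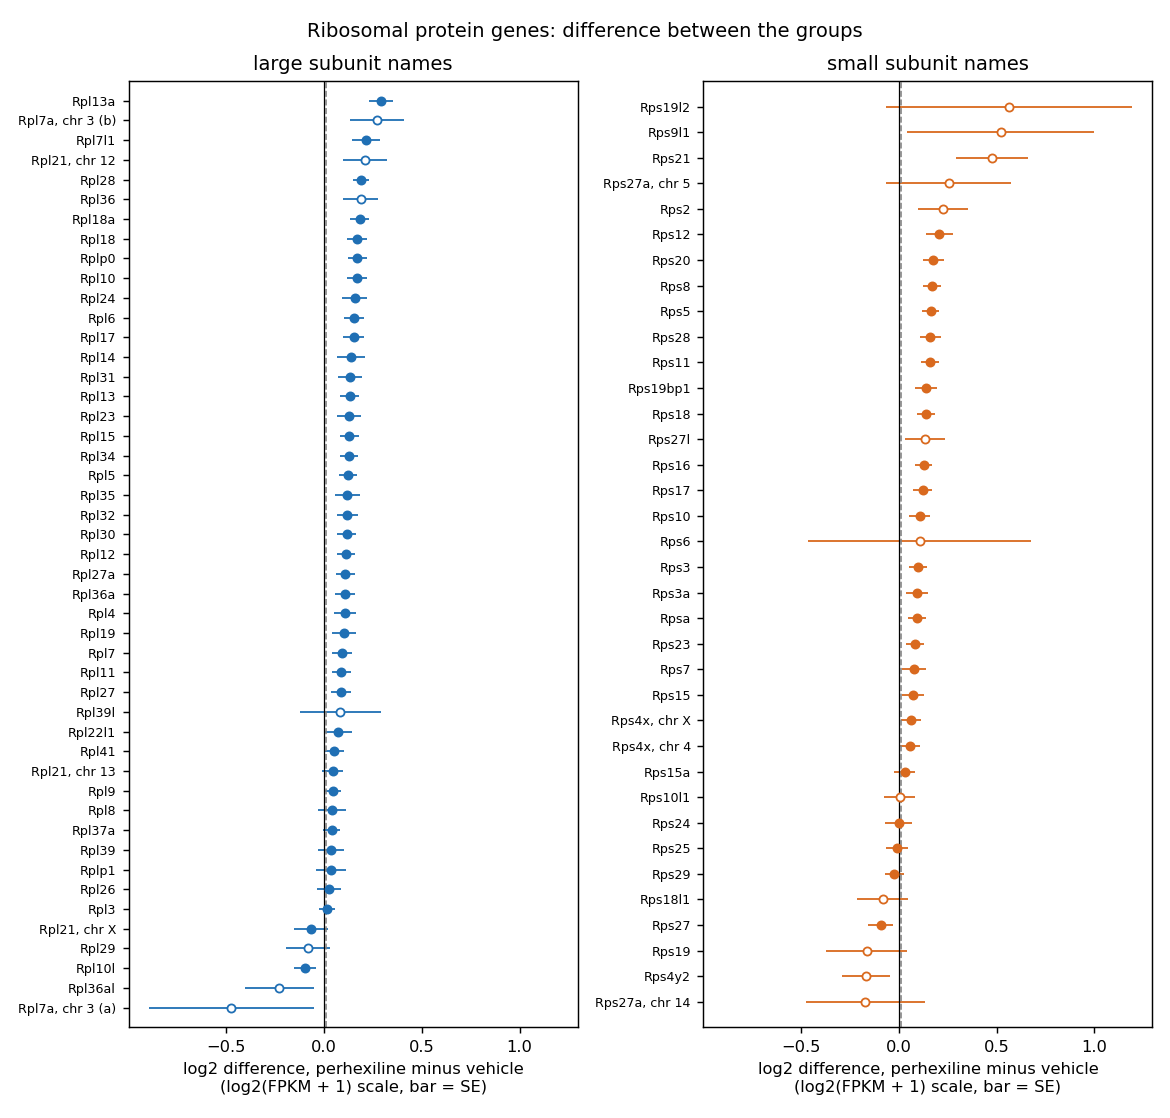
Log2 difference between perhexiline and vehicle (points, log2(FPKM + 1) scale) with its SE (bars) for 83 tested rows, large subunit on the left and small on the right. Open points have a replicate coefficient of variation of 10% or more in a group, the dashed line is the median of all genes tested (0.012), (a) and (b) are the Rpl7a copies that start at 4867233 and 5459160, and Rplp2 (-3.04 ± 1.22) lies off the axis and is left out; most filled points sit between 0 and 0.2.

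The genes that rose were Rpl28 and Rpl13a, both of the large subunit. Rpl28 (chromosome 1, 72619282 to 72621519 in the deposited table, for which the sources used here give no build) stood at 152, 159 and 157 FPKM with vehicle and 179, 176 and 178 with perhexiline. All perhexiline libraries lay above all vehicle libraries, and the log2 difference was 0.19 ± 0.042 (SE; adjusted p in limma = 0.0414). Rpl13a, which also has a known role in silencing inflammatory messenger RNAs (chromosome 1, 101120325 to 101123402), stood at 24.2, 22.2 and 23.9 FPKM with vehicle and 28.1, 30.8 and 27.8 with perhexiline. Its groups did not overlap either, and the difference was 0.29 ± 0.062 (SE; adjusted p in limma = 0.0381). The Rpl13a row held only 16.6% of the summed level of all rows described as this protein, and the sum went from 141 ± 0.334 to 158 ± 4.33 FPKM (limma adjusted p = 0.0610). For Rpl28 the row held 92.5%, and the sum was called as well (adjusted p = 0.0403). Both calls were lost in each of the 6 fits without 1 library, with limma adjusted p of 0.0602 to 0.132 for Rpl28 and 0.0539 to 0.125 for Rpl13a. In these fits 108 to 894 of all genes were called, against 896 with all libraries.

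The P-stalk recruits the elongation factors to the large subunit and is built from Rplp0, Rplp1 and Rplp2. Rplp0 (chromosome 12, 46791528 to 46794797) stood at 1135, 1157 and 1180.3 FPKM with vehicle and 1298, 1306 and 1298 with perhexiline. The groups did not overlap, with a log2 difference of 0.17 ± 0.049 (SE; adjusted p in limma = 0.0798). Rplp1 (chromosome 8, 66862143 to 66863476) stood at 789, 733 and 829 FPKM with vehicle and 876, 795 and 743 with perhexiline, with overlapping groups and a difference of 0.036 ± 0.077 (SE; adjusted p in limma = 0.799). Rplp2 (chromosome 1, 214428526 to 214430515) stood at 204, 363 and 8.43 FPKM with vehicle and 8.96, 6.95 and 15 with perhexiline. Vehicle replicates 1 and 2 were high and vehicle replicate 3 was as low as the perhexiline libraries, so the groups overlapped, and the difference of -3.04 ± 1.22 (SE; adjusted p in limma = 0.170) did not pass. The row LOC498555, described as the same protein, stood at 81.7 ± 3.08 and 92.7 ± 5.62 FPKM, and the sum of both rows was uneven as well, at 288, 458 and 98.3 FPKM with vehicle and 108, 115 and 109 with perhexiline. Without vehicle replicate 3, Rplp2 was called lower (limma adjusted p = 0.00552), the single member call of that fit.

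Rpl5 and Rpl11 travel with 5S ribosomal RNA into the large subunit. Rpl5 (chromosome 14, 2860965 to 2867397) stood at 506, 493 and 520.2 FPKM with vehicle and 552, 559 and 544 with perhexiline, without overlap and with a difference of 0.12 ± 0.046 (SE; adjusted p in limma = 0.142). Rpl11 (chromosome 5, 154388140 to 154394328) stood at 72.1, 66.9 and 70.3 FPKM with vehicle and 75.2, 76.0 and 71.5 with perhexiline. Its groups overlapped, and the difference was 0.088 ± 0.050 (SE; adjusted p in limma = 0.307). Neither passed the test. Of the proteins that line the exit tunnel of the nascent chain, 7 of the 8 rows were tested and all 7 differences were above 0, with a median of 0.11 and 0 called. Of the genes mutated in Diamond-Blackfan anaemia, a red cell disorder, 10 of 14 tested rows were above 0, with a median of 0.087 and 0 called. For both sets the shares over all genes tested were 52.9% above 0, 3.55% called higher and 3.11% called lower, with a median of 0.012.

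**Figure D2:**
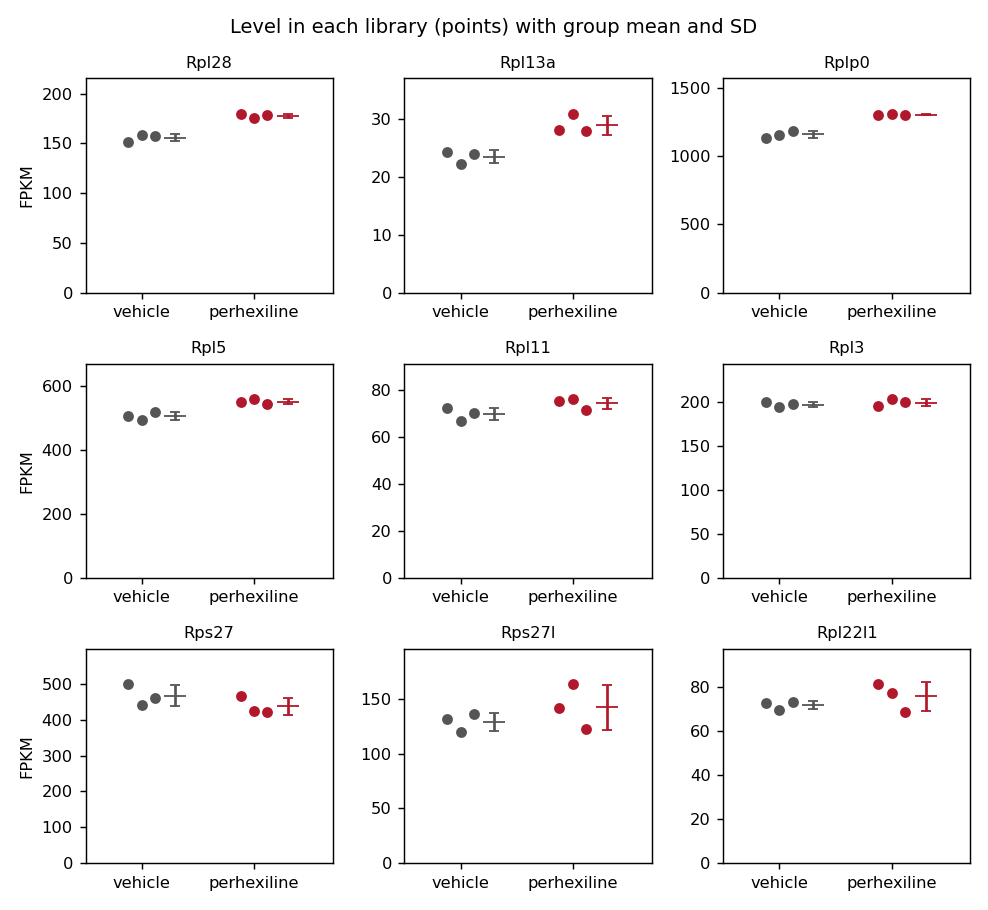
FPKM in each library (points) with the group mean and SD (bar), vehicle in grey and perhexiline in red, axes from 0, for 9 members. The groups are apart for Rpl28, Rpl13a, Rplp0 and Rpl5 and overlap for Rpl11, Rpl3, Rps27, Rps27l and Rpl22l1.

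Some ribosomal proteins are made as fusions with ubiquitin or a ubiquitin-like protein. Rps27a lies on chromosome 14 (113966611 to 113968268) and on chromosome 5 (138628482 to 138629026). The chromosome 14 row stood at 257, 499 and 278 FPKM with vehicle and 433, 243 and 237 with perhexiline. The chromosome 5 row stood at 469, 200.2 and 427 FPKM with vehicle and 313, 489.5 and 445 with perhexiline. They mirrored each other, high in 1 row where low in the other, and their sum was even, at 727, 699 and 705 FPKM with vehicle and 746, 733 and 682 with perhexiline, with a log2 difference of 0.019 ± 0.053 (SE; adjusted p in limma = 0.850). Fau, the fusion with Rps30, does not carry an Rpl or Rps name. It stood at 294, 270.0 and 304 FPKM with vehicle and 347, 313 and 158 with perhexiline, with perhexiline replicate 3 low (limma adjusted p = 0.735). Rack1, a scaffold for kinases on the small subunit that likewise has another name, stood at 267, 265 and 289 FPKM with vehicle and 304, 306 and 301 with perhexiline, without overlap and with adjusted p = 0.111.

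Paralogs can replace the standard protein in some tissues. Rpl3l, the heart and skeletal muscle form of Rpl3, was near 0, at 0.108, 0 and 0.106 FPKM with vehicle and 0, 0.0473 and 0.0852 with perhexiline. Rpl3, which it replaces in adult muscle, stood at 199.6, 194 and 198 FPKM with vehicle and 195, 203 and 199.8 with perhexiline, with a log2 difference of 0.016 ± 0.042 (SE; adjusted p in limma = 0.839) and overlapping groups. Rpl7l1, a relative of Rpl7, stood at 93.0, 95.9 and 104 FPKM with vehicle and 105, 123 and 113 with perhexiline, without overlap and with a difference of 0.21 ± 0.070 (SE; adjusted p in limma = 0.110). Rpl22l1 stood at 72.6, 69.7 and 73.1 FPKM with vehicle and 81.2, 77.4 and 68.6 with perhexiline, with overlap and a difference of 0.073 ± 0.067 (SE; adjusted p in limma = 0.529). Rps27l, the paralog of Rps27, stood at 132, 120.0 and 137 FPKM with vehicle and 142, 164 and 123 with perhexiline, with overlap and a difference of 0.13 ± 0.10 (SE; adjusted p in limma = 0.455). Rps27 itself stood at 499, 442 and 459.8 FPKM with vehicle and 466, 426 and 422 with perhexiline (adjusted p = 0.406). Rpl10l, the copy of Rpl10 known from the testis, stood at 37.9, 37.5 and 38.3 FPKM with vehicle and 38.0, 34.0 and 34.4 with perhexiline (adjusted p = 0.323). Rpl10 stood at 694, 662 and 662 FPKM with vehicle and 781, 755 and 731 with perhexiline without overlap, and its difference was 0.17 ± 0.051 (SE; adjusted p in limma = 0.0893). Of the paralogs, Rpl36al stood at 176, 201 and 179.6 FPKM with vehicle and 115, 178 and 191 with perhexiline, Rps4y2 at 24.5, 24.1 and 23.0 FPKM with vehicle and 24.6, 17.0 and 22.5 with perhexiline and Rpl39l at 1.62, 1.66 and 2.07 with perhexiline. The 7 tested paralogs had a median of 0.073, with 4 above 0, 1 higher without overlap and 0 called. Over all genes tested the median was 0.012, and 52.9% were above 0. Of those genes, 17.0% were higher and 14.9% lower without overlap, and 3.55% rose and 3.11% fell in the test. Single paralog values are uncertain, because near-identical copies can share reads and the sources used here do not say how such reads were counted.

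The rows with a wide spread between replicates, all but Rps27l, belonged to proteins named on other rows of the table as well. Beyond the 92 rows, 607 other rows (278 of them at 0 throughout) were described as a cytosolic ribosomal protein, mostly under placeholder names, and they held 10.5% to 11.3% of all fragments on ribosomal protein rows. Of the 20 wide rows, 10 had a sum over their protein with a coefficient of variation under 10%. Rps2 stood at 585, 605 and 791 FPKM with vehicle and 857, 699 and 749 with perhexiline, and the sum of its rows at 933, 979.9 and 1018 FPKM with vehicle and 1083, 1072 and 1025 with perhexiline. Rps21 stood at 216, 319.6 and 367 FPKM with vehicle and 432, 439 and 359.5 with perhexiline, with vehicle replicate 1 low and a difference of 0.47 ± 0.18 (SE; adjusted p in limma = 0.161). Its copy AC141489.1 was high in that library, at 68.4 against 6.87 to 21.9 FPKM in the other five, and the sum had a difference of 0.24 ± 0.070 (SE; adjusted p in limma = 0.0800).

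In the other 10 wide rows the sum stayed uneven or there was no other row. Rps6, whose protein is the classic target of S6 kinase, stood at 105, 22.9 and 44.5 FPKM with vehicle and 31.3, 96.0 and 45.0 with perhexiline, high in 1 library of each group (adjusted p = 0.928). Rps19l2 stood at 122, 35.0 and 87.2 FPKM with vehicle and 44.2, 121 and 227 with perhexiline (adjusted p = 0.616), and Rps19, the gene most often mutated in Diamond-Blackfan anaemia, at 146, 143 and 168 FPKM with vehicle and 169.8, 157 and 93.6 with perhexiline. Perhexiline replicate 3 was the lowest for Rps19 and the highest for Rps19l2. Rps9l1 stood at 5.85, 6.71 and 6.39 FPKM with vehicle and 4.52, 7.40 and 23.8 with perhexiline, with perhexiline replicate 3 alone high (adjusted p = 0.531). The Rpl7a copy starting at 4867233 stood at 32.0, 95.3 and 27.9 FPKM with vehicle and 27.5, 39.6 and 28.5 with perhexiline, with vehicle replicate 2 alone high (adjusted p = 0.517). The copy starting at 5459160 stood at 22.0, 22.1 and 25.3 FPKM with vehicle and 23.6, 35.3 and 26.4 with perhexiline (adjusted p = 0.263). In each row given here, the larger of the group SDs exceeded the difference between the group means in FPKM.

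Summing all rows of a protein gave 85 proteins, of which 83 were tested with the rest of the table. Of these, 1 rose (Rpl28) and 0 fell, where 3.72% of the genes in that fit rose and 3.39% fell. The difference was above 0 in 72 of 83, where 52.9% of all genes were above 0 in the main fit of single rows, and the median was 0.096. The median was 0.095 over 50 large-subunit proteins and 0.097 over 33 small-subunit proteins. The sums also give a level for standard proteins that had no row of their own name. Rps14, a small-subunit core protein, stood at 624, 655 and 678 FPKM with vehicle and 758, 714 and 723 with perhexiline without overlap, with limma adjusted p = 0.10. Rps26 stood at 196, 181 and 195 FPKM with vehicle and 210.1, 214 and 201 with perhexiline (adjusted p = 0.159), Rpl22 at 234, 223 and 234 FPKM with vehicle and 247, 239 and 226 with perhexiline (adjusted p = 0.647) and Rps13 at 87.7, 84.2 and 99.1 FPKM with vehicle and 90.9, 89.6 and 88.6 with perhexiline (adjusted p = 0.960). Rpl10a, listed at 0 under its own name, had a sum of 17.0, 12.4 and 26.3 FPKM with vehicle and 13.3, 19.3 and 44.4 with perhexiline, which was uneven within both groups.

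As a share of all fragments, ribosomal protein rows took 2.18%, 2.17% and 2.32% in the vehicle libraries and 2.49%, 2.54% and 2.43% in the perhexiline libraries. The groups did not overlap, with 2.22% ± 0.0835 against 2.48% ± 0.0573, a ratio of 1.12. As a sum over the members the share is a description and was given no test. The large subunit went from 1.33% ± 0.0423 to 1.48% ± 0.0399 and the small subunit from 0.898% ± 0.0417 to 1.01% ± 0.0179. Fragments on large-subunit rows were 1.453 to 1.503 times those on small-subunit rows in the vehicle libraries and 1.459 to 1.487 times in the perhexiline libraries, so the balance of the subunits differed by no more between groups than within them. Fragments of the mitochondrial genome took 7.45% ± 0.491 with vehicle and 6.13% ± 0.448 with perhexiline. Of nuclear protein-coding fragments alone, ribosomal protein rows took 2.38% to 2.57% with vehicle and 2.64% to 2.76% with perhexiline, again without overlap.

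**Figure D3:**
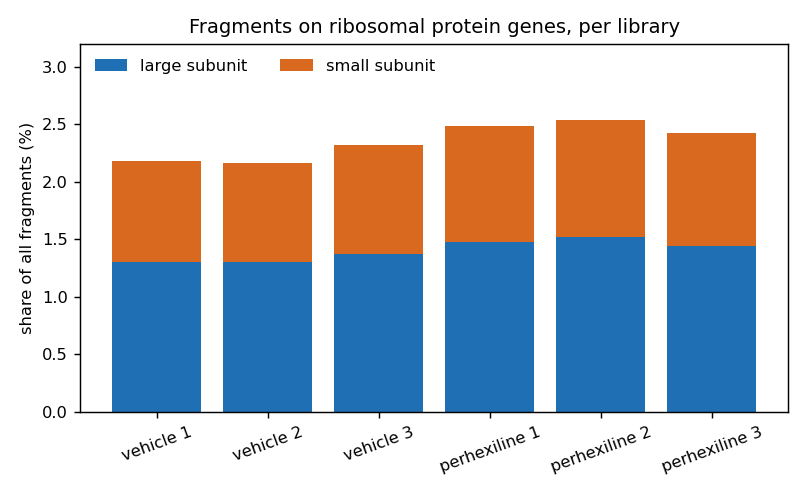
Share of all fragments of a library on ribosomal protein rows (percent, bars from 0), large subunit below and small subunit on top. All perhexiline bars (2.43% to 2.54%) are taller than all vehicle bars (2.17% to 2.32%).

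Genes that build ribosomes include many that rose with perhexiline. Of 75 tested genes of the ribosome biogenesis list, 18 rose and 0 fell, where 3.55% and 3.11% of all genes did. Without overlap, 46 were higher and 2 lower, against 17.0% and 14.9% of all genes, and the median log2 difference was 0.20. Rrp9, a protein of the U3 particle that processes ribosomal RNA, stood at 14.2, 13.5 and 14.1 FPKM with vehicle and 19.1, 19.3 and 19.4 with perhexiline, a difference of 0.44 ± 0.052 (SE; adjusted p in limma = 0.0110). Ddx21, a nucleolar helicase, stood at 27.8, 27.3 and 27.2 FPKM with vehicle and 33.4, 35.6 and 35.9 with perhexiline, a difference of 0.34 ± 0.050 (SE; adjusted p in limma = 0.0185). Bop1, a large-subunit assembly factor, stood at 18.3, 17.9 and 19.8 FPKM with vehicle and 24.4, 27.1 and 28.8 with perhexiline, a difference of 0.50 ± 0.074 (SE; adjusted p in limma = 0.0189). Nop2, a methyltransferase of ribosomal RNA, rose from 22.9 ± 0.695 to 30.5 ± 2.20 FPKM (limma adjusted p = 0.0220). Rrp9 kept its call in all 6 fits without 1 library. The count of 18 was 1 when vehicle replicate 1 or 2 or perhexiline replicate 2 or 3 was left out, and 3 when low values were not filtered. Calls over all genes fell in the same fits, from 896 to 136, 140, 145 and 108 in that order, and to 162 without the filter. The promoters of this list held the annotated C start with 4 pyrimidines in 4.23% and CCGGAAG in 52.1%, against 29.2% and 27.7% for the ribosomal protein genes.

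**Figure D4:**
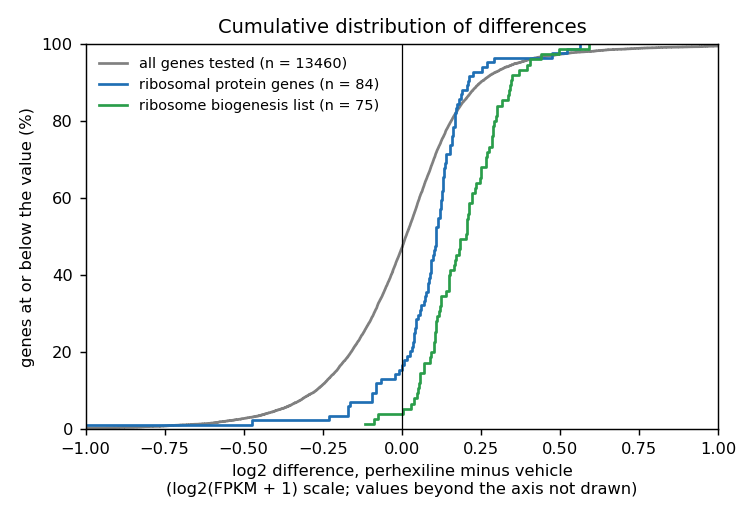
Cumulative share of genes (percent) by log2 difference between perhexiline and vehicle, for all 13460 genes tested (grey), 84 ribosomal protein rows (blue) and 75 ribosome biogenesis genes (green). The blue curve is steep and crosses its middle at 0.11, the green one at 0.20 and the grey one at 0.012.

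Other genes of the translation machinery passed the test about as often as genes at large, of which 3.55% rose and 3.11% fell. Most of their differences were nevertheless above 0, in each list below a larger share than the 52.9% over all genes. Without overlap, 17.0% of all genes were higher and 14.9% lower. Of 11 elongation factor genes, 0 rose and 1 fell, with a median of 0.12, and 9 were above 0, 6 higher and 2 lower without overlap. The fall was that of Eef1a2, the muscle and nerve form of elongation factor 1A, at 396, 386 and 369.6 FPKM with vehicle and 337, 318 and 328 with perhexiline (limma adjusted p = 0.0385). Eef1a1, the form of most cells, stood at 2025, 2007 and 2061 FPKM with vehicle and 2208, 2384 and 2371 with perhexiline, without overlap in the opposite direction (adjusted p = 0.0936). Of 36 initiation factor genes, 2 rose and 0 fell, with a median of 0.085, and 32 were above 0, 14 higher and 1 lower without overlap. The rises were those of Eif3b, from 104 ± 0.802 to 122 ± 5.77 FPKM, and Eif6, which keeps free large subunits apart from small ones, from 94.0 ± 6.23 to 116 ± 5.55 FPKM. Of 20 other genes with TOP messenger RNAs, 0 rose and 2 fell, Vim and Hnrnpa1, with 16 above 0, 12 higher and 3 lower without overlap and a median of 0.091. Vim, an intermediate filament of mesenchymal cells, went from 281 ± 5.68 to 228 ± 13.2 FPKM, and Hnrnpa1, an RNA-binding protein, from 149 ± 8.07 to 126 ± 2.97 FPKM. Their calls were lost in 4 (Vim, Eef1a2) or 5 (Hnrnpa1, Eif3b, Eif6) of the 6 fits without 1 library.

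Of all genes tested, 3.55% rose and 3.11% fell, with a median log2 difference of 0.012. Among regulators, RNA polymerases I and III had 1 rise and 0 falls among 28 genes, with a median of 0.072. It was Polr1e, a subunit of RNA polymerase I, from 5.41 ± 0.240 to 7.32 ± 0.181 FPKM, and it was called in 1 of the 6 fits without 1 library. Of 27 genes of mTORC1 and TOP control, 2 rose and 0 fell, with a median of 0.026. Myc, a transcription factor that drives ribosome genes, stood at 9.40, 8.53 and 10.5 FPKM with vehicle and 18.3, 22.7 and 21.2 with perhexiline, and Ddit4, an inhibitor of mTORC1, at 11.2, 11.3 and 9.98 FPKM with vehicle and 21.8, 22.2 and 19.7 with perhexiline, and both were called in all 6 such fits. Of 18 genes of the list around ribosome quality control, 3 rose and 0 fell, with a median of 0.085, among them Pelo and Nufip1. Pelo, which rescues stalled ribosomes, stood at 64.0, 65.7 and 67.4 FPKM with vehicle and 89.7, 98.0 and 92.5 with perhexiline (limma adjusted p = 0.00805). Nufip1, a receptor for the autophagy of ribosomes, went from 12.5 ± 0.0524 to 15.9 ± 0.893 FPKM (limma adjusted p = 0.0296) and was called in 2 of the 6 fits without 1 library.

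Markers of cell types differed between the same groups, and their part in the ribosomal protein difference was not tested. Among all genes tested, 3.55% rose and 3.11% fell, with a median log2 difference of 0.012. Of 10 cardiomyocyte markers 3 fell (Myh6, Tnni3 and Myl2) and 0 rose, with a median of -0.37, and their summed level was 17603 to 22188 FPKM with vehicle and 15806 to 18403 with perhexiline. Of 7 tested macrophage and leukocyte markers (of 9) 2 fell (C1qa and Tyrobp), with summed levels of 95.2 to 104 and 50.8 to 79.5 FPKM. Smooth muscle and pericyte markers summed to 785 to 1118 and 605 to 798 FPKM, with 0 of 7 called. Of 8 fibroblast markers 2 rose (Dcn and Pdgfra) and 1 fell (Col3a1), with sums of 1044 to 1083 and 1003 to 1049.9 FPKM. Endothelial markers (4 of 7 tested, 0 called) summed to 16.7 to 19.8 and 18.4 to 19.3 FPKM and Schwann cell markers (3 of 5, 0 called) to 6.16 to 6.99 and 5.996 to 6.53. Erythroid markers (3 of 5, Hba-a2 higher) summed to 5.13 to 9.44 and 11.6 to 12.5 FPKM. No marker of these lists was at 0 in all 6 libraries. Defining markers near 0 were the endothelial Vwf, at most 0.23 FPKM in any library, and the haemoglobin Hbb-b1, at 0 in 2 of 6.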

How the data were processed

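Poly(A) RNA of 6 libraries was isolated with TRIzol and sequenced as paired ends on a NovaSeq after dUTP second-strand marking, per the labels' protocols. The authors deposited FPKM per gene and library, per the file headers, with gene length, biotype, description and coordinates. HISAT2 2.0.5 and DESeq2 are named in the submitters' processing notes, with no role stated. The sources used here name no build, annotation or counting method. Reads shared by paralogs, pseudogenes or antisense genes cannot therefore be assigned. No column of another sample was present.

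FPKM times length gave whole fragments for 100% of values within 0.01, which set the depth and its precision. For genes at 1 FPKM or more in 3 or more libraries, log2(FPKM + 1), which understates changes of low genes, was compared with limma 3.58.1 (R 4.3.3, mean-variance trend, two-sided) by group alone. The threshold was a Benjamini-Hochberg adjusted p of 0.05 over all genes. All adjusted p-values are from limma. No pair of replicate libraries was identical over all rows, and the chi-square over degrees of freedom of these pairs was 4.44 to 7.63. The procedure was tested on simulated data with planted changes larger than most differences of the ribosomal protein genes, so that test does not cover changes of their size. Rows were summed by the protein named in the deposited description, an alternative chosen after seeing the data.

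The members, lists and rules were chosen with earlier results of these data known. Named were called members, the 5 highest and 5 lowest differences, the 5 highest levels and the 5 lowest above 0 (with the lowest tested ones added), stalk, 5S particle, fusion and paralog genes, members at 0, and for each pathway list up to 4 called genes. Rpl3, Rpl10, Rps2, Rps6, Rps19, Rps27, Eef1a1, the marker genes, the proteins given by sums and the genes at the printed starts were named outside it, after their values were seen. Other scalings, filters, pseudocounts and models, a replicate block and each library left out were tried. Some genes of the lists are not reported here.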

Additional observations from a re-analysis of the deposited data

How the results depend on the processing

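The count of 2 ribosomal protein genes called was 11 under total-fragment scaling, 4 with limma-voom, 1 with rows of a protein summed (chosen after seeing the data), 0 under upper-quartile scaling, 0 with no filter on low values, and 0 to 1 without 1 library. It was 2 with a pseudocount of 0.1, a mean FPKM of at least 5, robust fitting, and median-of-ratios scaling without these genes. Both called genes have standard symbols, so counting standard symbols only in the main fit had to give the same 2. The median log2 difference moved under total-fragment scaling, to 0.17 for the large and 0.16 for the small subunit, and was 0.091 to 0.14 and 0.084 to 0.12 without 1 library. The difference in share of fragments, 0.261 percentage points, was 0.233 to 0.309 without 1 library. Ribosome biogenesis genes called numbered 3 with no filter and 1 to 20 without 1 library. Over all genes, 896 were called in the main fit, 162 with no filter and 108 to 894 without 1 library. Of the 84 ribosomal protein rows tested, 17 changed sign in at least 1 fit without 1 library, none of which was called: Rps9l1 (-0.10 to 0.98), the Rpl7a copy starting at 4867233 (-0.80 to 0.074), Rps27a on chromosome 14 (-0.45 to 0.13) and on chromosome 5 (-0.13 to 0.48), Rplp1 (-0.027 to 0.092, and -0.011 without vehicle replicate 2), Rpl39l (-0.095 to 0.31) Rpl8 (-0.0023 to 0.083, and -0.0013 without vehicle replicate 1), Rps6 (-0.41 to 0.67), Rps19 (-0.33 to 0.10), and Rpl21 on chromosome X, Rpl26, Rpl39, Rps10l1, Rps15a, Rps18l1, Rps24 and Rps25. The number was 9 without vehicle replicate 2 and 2 to 5 without another library. The cause was not tested.

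Libraries with the same replicate number did not deviate together (correlations of -0.023, -0.10 and -0.039, against -0.055 to 0.092 for different numbers). These values show no pairing by number, but so few libraries cannot exclude it. With the replicate block, 0 ribosomal protein genes and 2 ribosome biogenesis genes were called, against 173 genes in all.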
